A study of Mus musculus with 10 samples.

Results

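The genes described here are Hcn2, Hcn3 and Hcn4, which encode pore subunits of hyperpolarization-activated, cyclic nucleotide-gated (HCN) channels, and Pex5l, which encodes their auxiliary subunit TRIP8b. They were chosen by name, as 4 of the 55367 genes in the count and FPKM files, and were followed in all 10 neurons. They are not the only genes that can carry or shape the h-current (Ih). Their values are therefore no total for that current, and a low value does not say that a neuron lacked it.

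HCN channels open when the membrane is hyperpolarized and pass a mixed inward cation current, which pulls the membrane back toward threshold and appears as a depolarizing sag during a hyperpolarizing step. Cyclic AMP binds to the cytoplasmic end of the subunits and shifts their opening toward less negative voltages, most strongly for channels of Hcn2 and Hcn4. TRIP8b binds the end of the subunits, where it directs their trafficking to the membrane and reduces their response to cyclic AMP. In the preBötzinger complex (preBötC), the brainstem site that generates the inspiratory rhythm, a sag is one of the signs by which Type-2 neurons are told from Type-1 neurons, which show delayed excitation by an A-type potassium current instead.

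Patch-Seq was performed on inspiratory preBötC neurons in brainstem slices of neonatal mice, with the cell contents drawn into the pipette after the recording and 1 library made per neuron. Neurons labelled Dbx1-derived came from Dbx1;Ai148 mice, in which Cre from the Dbx1 locus switches on the fluorescent calcium indicator GCaMP6f in cells whose precursors expressed Dbx1, on a C57Bl/6J or mixed background. Neurons labelled WT came from CD-1 mice without a reporter. The 4 Type-1 neurons were sample 4 (WT, P3), sample 5 (Dbx1-derived, P0), sample 6 (Dbx1-derived, P3) and sample 7 (Dbx1-derived, P3). The single Type-2 neuron was sample 1 (Dbx1-derived, P0). The 5 Unknown neurons, whose recordings were ambiguous, were sample 2 (P2), sample 3 (P0), sample 8 (P0), sample 9 (P2) and sample 10 (P1), all WT. The labels name no animal. Their lines and ages place the Type-1 and the Unknown neurons in several animals each, but some neurons may share one, so no test between types was made and each SD is a spread over neurons. Legends in the study assign the mouse lines to the samples differently. Its main text gives the same number of neurons of each type per line as the labels, and the labels were used here. Type, mouse line and age cannot be told apart, because 3 of 4 Type-1 neurons were Dbx1-derived and no Unknown neuron was.

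The libraries held 21392146 to 36629393 fragments counted on genes, and 3 fragments are taken as the limit that a count of 0 allows. Samples 1 to 4 were set apart in the study by low levels of part of the genes and by higher variability. The study also reports that they had the lowest cDNA concentrations, although all passed its criterion. Here 5055 to 6795 genes reached 1 FPKM (fragments per kilobase of gene length per 1e+06 fragments on genes) in them, against 6632 to 9307 in samples 5 to 10. Of 8 neuronal markers, 6 to 8 were at 1 FPKM or more in every library, with a summed level of 58.4 FPKM in sample 4 and 761 to 4670 FPKM in the others. In sample 4 all 8 microglial markers reached 1 FPKM and summed to 15054 FPKM, against 0.667 to 1931 FPKM elsewhere. They were not confined to sample 4. In samples 2, 8 and 10, 7 of the 8 reached 1 FPKM, with sums of 1931, 495 and 208 FPKM. Sample 5 had 6 of them at that level, sample 3 had 4, sample 6 had 3 and sample 1 had 2. Samples 7 and 9 had 0. In sample 9, 4 of 5 motoneuron markers reached 1 FPKM and the list summed to 513 FPKM, while Mnx1 had no fragment in any library. Astrocyte markers summed to 5450 (sample 3), 5005 (sample 4), 2729 (sample 2) and 1734 FPKM (sample 8, with all 8 at or above 1 FPKM), against 3.98 to 464 FPKM in the remaining neurons. The 7 oligodendrocyte lineage markers were highest in the Unknown samples 3, 2 and 8, at 316, 205 and 105 FPKM, against 0.00824 to 55.1 FPKM in the remaining neurons. What part the quality of these libraries or RNA of other cells had in the values below was not tested.

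The 3 subunit genes resemble each other in sequence, so it matters whether fragments could be counted on the wrong one. Over their aligned reading frames in the reference mouse genome (GRCm38, GENCODE M21 annotation), 74.7% of bases were identical between Hcn2 and Hcn3, 79.1% between Hcn2 and Hcn4 and 77.8% between Hcn3 and Hcn4. The longest run shared without a mismatch was 33 bases for Hcn2 and Hcn3 and 32 bases for either of the other pairs. Sample 3 had 1027 fragments on Hcn2 and 3 on Hcn3, sample 8 had 1489 and 0, and sample 7 had 12 on Hcn2 and 3578 on Hcn3. In samples 3, 7 and 8 a high count on one subunit thus came without a high count on the other. Samples 5, 6, 9 and 10 had both. Their counts on Hcn2 and Hcn3 were 3696 and 1838 (sample 5), 568 and 3708 (sample 6), 140 and 2214 (sample 9), and 6198 and 394 (sample 10). Whether fragments were counted on the wrong gene was not tested.

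TRIP8b recognizes the last residues of HCN subunits, so the end of each reading frame is shown, 5′ to 3′ on the coding strand and all in exon 8, with the final 3 codons before the stop in capitals.
Hcn2 (chr10:79735511-79735540, plus strand): gcgcgctcgcgcctctctTCCAACTTGtga
Hcn3 (chr3:89147599-89147628, minus strand): agaggtccccaaatttctGCCAACATGtga
Hcn4 (chr9:58860734-58860763, plus strand): gtacgctccaaactgccgTCTAATTTAtga

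These 3 codons encode the same residues in Hcn2 and Hcn4, although only 6 of their 9 bases are identical. In Hcn3 not all of the 3 residues are the same as in Hcn2 and Hcn4, with 7 of 9 bases identical to Hcn2 and 4 of 9 to Hcn4. Hcn2, the subunit of many central neurons and of the heart, has a reading frame of 863 codons, and Hcn3 has 779. Hcn4, the main subunit of the sinoatrial node, has the longest frame, with 1201 codons.

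Hcn2 lies on chr10:79716634-79736108 (plus strand, 8 exons). The Type-1 neurons held Hcn2 at 0 (sample 4), 31.6 (sample 5), 5.65 (sample 6) and 0.146 FPKM (sample 7). The Type-2 neuron, sample 1, had 2 fragments of Hcn2, a level of 0.0293 FPKM. The Unknown neurons held it at 0.00863 (sample 2), 10.3 (sample 3), 17.5 (sample 8), 1.99 (sample 9) and 63.6 FPKM (sample 10). Hcn2 was thus high in samples 10 and 5, intermediate in samples 8, 3, 6 and 9, and near 0 in the other 4 neurons, with high and low neurons in both the Type-1 and the Unknown group. In sample 10, Hcn2 stood at percentile 91.2 of the genes with a fragment, and in sample 5 at percentile 84.6.

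Hcn2 was at 1 FPKM or more in 6 of 10 neurons. Of the 16546 genes that reached 1 FPKM in at least 1 neuron, 37.4% did so in 6 or more. These 6 were 2 of 4 Type-1 and 4 of 5 Unknown neurons. The level averaged 9.34 FPKM ± 15.1 in Type-1 (SD, n = 4) and 18.7 FPKM ± 26.0 in Unknown neurons (SD, n = 5). In both groups the SD exceeded the mean, and the levels of the groups overlapped. At the low end, 0 fragments in sample 4, 1 in sample 2 and 2 in sample 1 do not differ beyond counting error, since the exact 95% Poisson interval of 2 fragments is 0.242 to 7.22. Such intervals cover counting error only, because the protocol used no molecular identifiers.

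Hcn3 lies on chr3:89146074-89160196 (minus strand, 8 exons) and encodes a subunit that responds little to cyclic AMP. Its level in the Type-1 neurons was 0.703 (sample 4), 12.1 (sample 5), 28.3 (sample 6) and 33.5 FPKM (sample 7). In the Type-2 neuron it was again counted on 2 fragments, a level of 0.0225 FPKM. In the Unknown neurons it was 0 (sample 2), 0.0232 (sample 3), 0 (sample 8), 24.1 (sample 9) and 3.11 FPKM (sample 10). All 3 Dbx1-derived Type-1 neurons were at 12.1 FPKM or more, and of the others only sample 9 came as high. Hcn3 stood at percentile 85.1 in sample 7, 82.5 in sample 6 and 80.4 in sample 9.

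Hcn3 reached 1 FPKM in 5 of 10 neurons, namely 3 of 4 Type-1 and 2 of 5 Unknown neurons. Its mean was 18.7 FPKM ± 15.1 in Type-1 (SD, n = 4) and 5.46 FPKM ± 10.5 in Unknown neurons (SD, n = 5). By mouse line it was 18.5 FPKM ± 15.3 in the 4 Dbx1-derived neurons and 4.66 FPKM ± 9.62 in the 6 WT neurons (SD), by the lines that the labels give, with a range of 0.0225 to 33.5 FPKM in the former and 0 to 24.1 FPKM in the latter. Hcn3 was under 1 FPKM in each of samples 1 to 4, as were 31.2% of the 16546 genes. The gene shares 711 exon bases with Pklr (pyruvate kinase of liver and red cells) on the opposite strand, and the SMART-Seq chemistry does not mark strand. Pklr held 938 fragments, or 11.3 FPKM, in sample 7 and at most 1 fragment in every other library, so the Hcn3 value of sample 7 is uncertain. In all libraries, reads on the shared bases may also have been left out of the counts, since the counting options are not stated.

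Hcn4 lies on chr9:58823412-58863175 (plus strand, 8 exons) and had fragments in 1 neuron only. In sample 2, an Unknown neuron, 30 fragments were counted (exact 95% Poisson interval 20.2 to 42.8), a level of 0.135 FPKM. The other 9 neurons had 0 fragments, which allows a level of up to 0.0134 FPKM in sample 5, the deepest library, and up to 0.0229 FPKM in sample 1, the shallowest. Hcn4 thus stayed under 1 FPKM in every library, and levels below these limits were not detectable at this depth.

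Pex5l lies on chr3:32949408-33143247 (minus strand) and spans 193840 bases. Of the Type-1 neurons, sample 7 had 796 fragments, or 3.50 FPKM, and samples 4, 5 and 6 had 0. The Type-2 neuron had 0 fragments, which allows up to 0.0159 FPKM. Of the Unknown neurons, sample 10 had 1462 fragments, or 5.42 FPKM, samples 3 and 9 had 1 fragment each, and samples 2 and 8 had 0. Pex5l was thus found well above the limit in 1 Type-1 and 1 Unknown neuron, and stood near the middle of the detected genes in both, at percentiles 44.9 and 45.9.

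Pex5l shares 340 exon bases with the antisense gene Gm37459, which had 53 fragments in sample 7, 141 in sample 10, 1 in sample 3 and 0 in the others. Reads of the shared bases cannot be assigned to a strand. It shares another 24 bases with 4930419G24Rik, on which no fragment was counted in any library. The fragments on Pex5l outnumbered those on Gm37459 in both neurons.

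**Figure D1:**
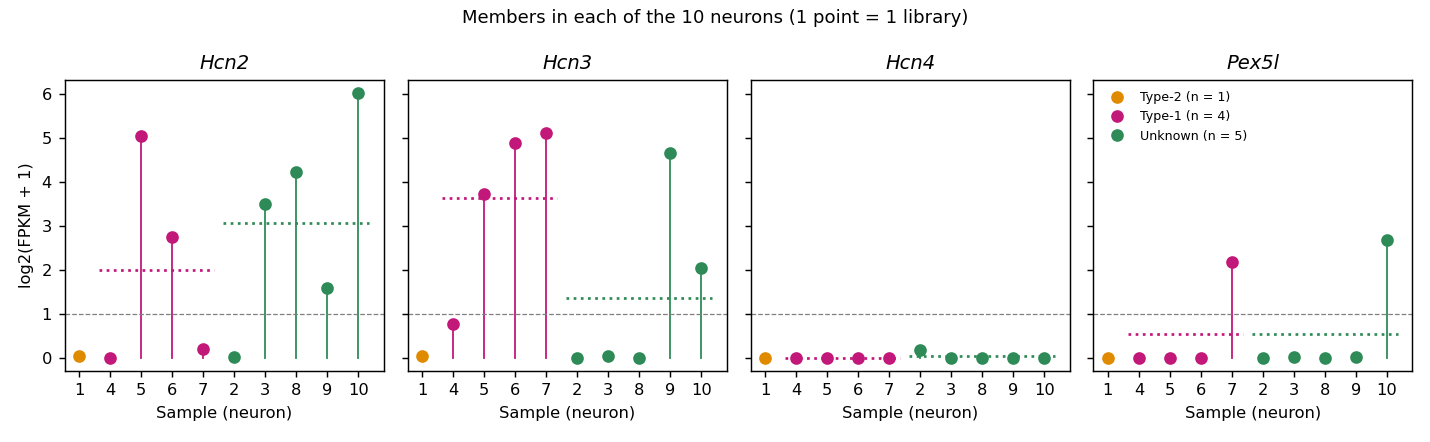
Level of Hcn2, Hcn3, Hcn4 and Pex5l as log2(FPKM + 1) (vertical axis) in each neuron (horizontal axis, ordered by type), with 1 point per library. The dashed line marks 1 FPKM and dotted lines the mean of the Type-1 (n = 4) and Unknown (n = 5) neurons. Hcn2 is highest in sample 10 at 6.01, Hcn3 in sample 7 at 5.11, and Pex5l is above the line in samples 7 and 10.

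FPKM is per length, so that the 3 subunit genes can be set against each other within a neuron. In 7 neurons their summed level was 10.3 FPKM or more. Hcn2 made up nearly the whole sum in sample 3 (99.8% of 10.3 FPKM), sample 8 (100% of 17.5 FPKM) and sample 10 (95.3% of 66.7 FPKM). Hcn3 made up most of it in sample 6 (83.4% of 34.0 FPKM), sample 7 (99.6% of 33.7 FPKM) and sample 9 (92.4% of 26.1 FPKM). Sample 5 was mixed, with 72.3% Hcn2 and 27.7% Hcn3 in a sum of 43.7 FPKM. The same type thus held neurons of either makeup: Hcn2 led in 1 and Hcn3 in 2 of the Type-1 neurons above 10 FPKM, and Hcn2 led in 3 and Hcn3 in 1 of such Unknown neurons.

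In the other 3 neurons the sum stayed under 1 FPKM, at 0.0518 (sample 1), 0.144 (sample 2) and 0.703 FPKM (sample 4). These are the Type-2 neuron, 1 Unknown neuron and the WT Type-1 neuron, and all are among samples 1 to 4. Counted by detection at 1 FPKM, Hcn2 and Hcn3 were both present in 4 neurons (samples 5, 6, 9 and 10), Hcn2 without Hcn3 in 2 (samples 3 and 8), Hcn3 without Hcn2 in 1 (sample 7) and neither in 3. Both neurons with Pex5l also had Hcn3, and 1 of them had Hcn2 as well. Sample 10 had the highest subunit sum and the highest Pex5l level, while sample 5, with the second highest sum, had no Pex5l fragment.

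**Figure D2:**
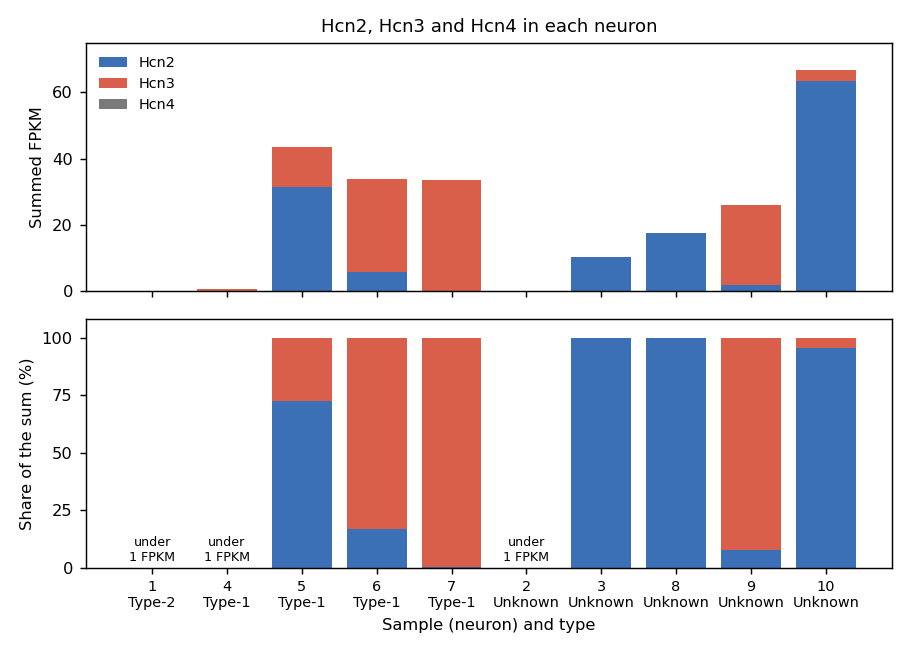
Summed FPKM of Hcn2, Hcn3 and Hcn4 (top) and the share of each in that sum in percent (bottom) for each neuron, ordered by type. Shares are not drawn where the sum is under 1 FPKM (samples 1, 4 and 2). Hcn2 fills nearly the whole bar in samples 3, 8 and 10, and Hcn3 in samples 7 and 9.

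The comparison of Type-2 with Type-1 asks whether the neuron type recognized by its h-current held more transcript of these genes. In these libraries the 1 Type-2 neuron held less Hcn2 and Hcn3 than the Type-1 mean, and no Pex5l or Hcn4 fragment. On the log2(FPKM + 1) scale, which understates changes of low genes, Hcn3 was at 0.03 in the Type-2 neuron and at 3.62 ± 1.99 in Type-1 neurons (SD, n = 4), a difference of -3.58. Hcn2 was at 0.04 against 1.99 ± 2.38, a difference of -1.95. Pex5l differed by -0.54, and Hcn4 was at 0 on both sides.

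A difference of 2 or more on this scale was set as the fold to count. Hcn3 passed it downward, as did 19.9% of the 16546 genes, while 11.7% passed it upward and no member did. The median difference over all those genes was -0.66, so a lower value in sample 1 was the more frequent direction for any gene. The Hcn3 level of sample 1 lay below all 4 Type-1 neurons. That is not particular to Hcn3. Among the cyclases and phosphodiesterases followed below, Adcy1, Adcy2, Adcy7, Pde4a and Pde4b did so too. Pde8a, Pde8b and Pde10a lay above all 4. The share of all genes with such a value in sample 1 was not counted, so no reading of Hcn3 rests on it. Its 2 Hcn2 fragments lay below samples 5, 6 and 7 and did not differ from the 0 of sample 4 beyond counting error. With TPM, which rescales each library by its own summed per-length values, Hcn2 passed the fold at -2.69. It passed as well with a pseudocount of 0.1 in place of 1 (-3.49) and without sample 4 (-2.61) or sample 7 (-2.54), and was at -0.93 without sample 5. More of the 16546 genes passed downward under these settings too. They numbered 4534 with TPM, 6084 with that pseudocount, 3747 without sample 4 and 3410 without sample 7, against 3290. The median over all genes was -0.88 with TPM and -1.34 with that pseudocount, so these passes do not set Hcn2 apart. Sample 1 is 1 neuron with the smallest library and is among samples 1 to 4, and what part the library had in its low values was not tested.

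**Figure D3:**
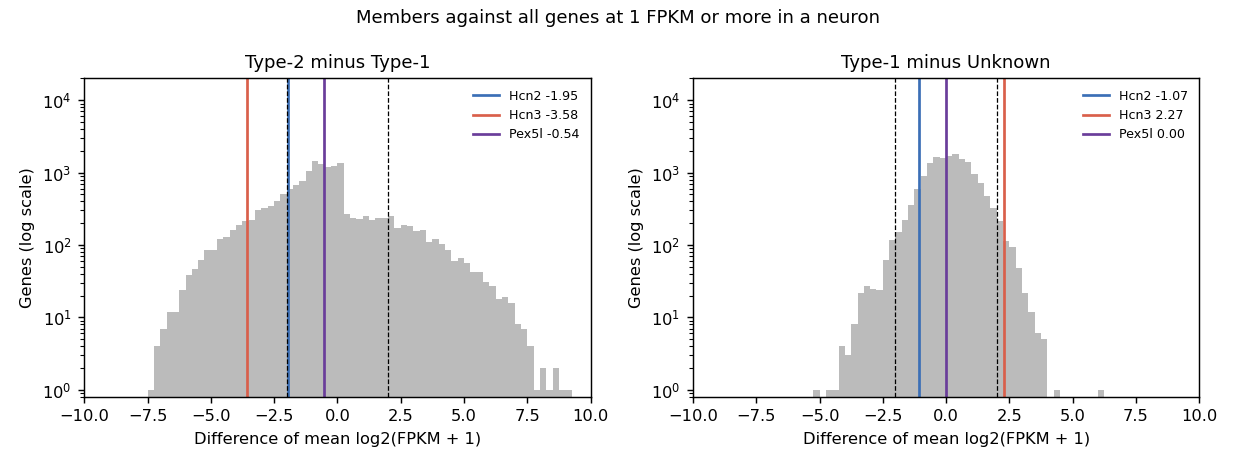
Difference of mean log2(FPKM + 1) for Type-2 minus Type-1 (left) and Type-1 minus Unknown (right), with the 16546 genes at 1 FPKM or more in a neuron as grey bars (number of genes, log axis) and Hcn2, Hcn3 and Pex5l as coloured lines. Dashed lines mark 2 in either direction. Hcn3 lies beyond the dashed line in both panels, at -3.58 and 2.27.

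Type-1 and Unknown neurons are the only groups with several neurons each, and the Type-1 neurons enter both comparisons. Hcn3 averaged 3.62 ± 1.99 in Type-1 (SD, n = 4) and 1.34 ± 2.05 in Unknown neurons (SD, n = 5) on the log2(FPKM + 1) scale, a difference of 2.27, which passed the fold. In the same direction 3.13% of the 16546 genes passed it, and 1.78% passed it the other way. The difference exceeded the SD within either group by little, and the groups overlapped, since sample 9 was above samples 4 and 5. It fell under 2 without sample 6 or 7 on the Type-1 side, or without sample 2, 3 or 8 on the Unknown side, and was lowest, at 1.77, without sample 7. Over samples 5 to 10 alone, with 3 neurons of each type, it was 2.33.

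Hcn2 went the other way, at 1.99 ± 2.38 in Type-1 (SD, n = 4) and 3.06 ± 2.33 in Unknown neurons (SD, n = 5), a difference of -1.07. That is smaller than the SD within either group. Without sample 5 it was -2.09. Pex5l differed by 0.00 and Hcn4 by -0.04. None of the 4 genes separated the groups without overlap, which 0.973% of the 16546 genes did in either direction.

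Partners that bind HCN channels or change their gating or transport were followed as a list of 9 genes. Of these, 7 reached 1 FPKM in a neuron, and Kcne2 and Mrvi1 had no fragment anywhere. Vapa, an endoplasmic reticulum protein that helps carry the channels toward the membrane, was the highest, with a mean of 101 FPKM and a range of 55.9 to 165 FPKM over the 10 neurons. It was thus abundant in every library, with 60.8 FPKM in the Type-2 neuron and 90.1 FPKM in sample 4, where members were low or at 0. Against Type-1, 0 of 9 partners were higher and 1 was lower in the Type-2 neuron by the fold of 2, beside 11.7% and 19.9% of all genes. The median difference was -0.33 over the list and -0.66 over all genes. A list of 9 is too small to set these counts apart from the background.

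The partner past the fold was Kctd3, which binds Hcn3 and raises its surface level, at -2.74. It was at 0.0345 FPKM or less in samples 1 to 4 and at 6.98 to 25.9 FPKM in samples 5 to 10. Hcn3 reached 1 FPKM in 0 of the first 4 and in 5 of the last 6 of these neurons, although by TPM sample 4 reached 1.02. What part the libraries had in either pattern was not tested. Between Type-1 and Unknown neurons, Flna, an actin cross-linker that binds HCN channels, was the 1 partner past the fold, lower in Type-1 at -2.73. Of all genes, 1.78% passed it in this direction and 3.13% in the other. Flna was at 0.00336 to 0.527 FPKM in the Type-1 neurons and highest in samples 8 (34.7 FPKM) and 2 (22.6 FPKM).

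Adenylyl cyclases, the enzymes that make the cyclic AMP to which HCN channels respond, were followed as 10 genes, of which 6 reached 1 FPKM in a neuron. Adcy4 and Adcy10 had no fragment in any library. In the Type-2 neuron none of the 10 reached 1 FPKM and together they summed to 0.0536 FPKM, against 3.86 to 41.9 FPKM in Type-1 and 0.929 to 42.0 FPKM in Unknown neurons. By the fold of 2, 0 were higher and 2 were lower in the Type-2 neuron than in Type-1, beside 11.7% and 19.9% of all genes, with a median of -0.43 over the list and -0.66 over all genes. So small a list cannot set these counts apart from the background. The lower genes were Adcy1, a calcium-stimulated cyclase, at -2.22, and Adcy8, another calcium-stimulated cyclase, at -2.05.

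Adcy1 was at 2.19 (sample 4), 5.00 (sample 5), 0.345 (sample 6) and 19.7 FPKM (sample 7) in Type-1, against 0.0299 FPKM in sample 1. Adcy2 had the highest mean of the list, 6.75 FPKM, and parted the neurons, at 13.3 to 22.4 FPKM in samples 5, 7, 8 and 10 and no higher than 0.0215 FPKM in the remaining 6. Between Type-1 and Unknown neurons 0 of 10 cyclases were higher and 1 was lower in Type-1, beside 3.13% and 1.78% of all genes. The lower gene was Adcy5, at -2.11.

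Phosphodiesterases that break down cyclic AMP were followed as 10 genes, of which 8 reached 1 FPKM in a neuron and Pde2a had no fragment. In the Type-2 neuron 2 were higher and 1 was lower than in Type-1 by the fold of 2, beside 11.7% and 19.9% of all genes. The median was 0 over the list and -0.66 over all genes. A list of 10 is too small to set these counts apart from those shares. Pde8a, an enzyme selective for cyclic AMP, was at 97.6 FPKM in the Type-2 neuron and did not exceed 0.0674 FPKM in any other, a difference of 6.60 from Type-1. Pde10a, which breaks down both cyclic AMP and cyclic GMP, was at 6.58 FPKM in the Type-2 neuron, a difference of 2.36, but at 20.2 FPKM in sample 2. Pde4a, with the highest mean of the list at 10.1 FPKM, was the lower gene, at 0.0305 FPKM in the Type-2 neuron and -2.59 from Type-1. None of the 10 passed the fold between Type-1 and Unknown neurons in either direction. Among all genes, 3.13% passed it as higher and 1.78% as lower in Type-1.

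Inward rectifiers of the Kir2 group pass potassium current in the voltage range in which HCN channels open, and 4 of their genes were followed. Kcnj14 was at 16.4 (sample 6) and 19.5 FPKM (sample 7), and did not exceed 0.0667 FPKM elsewhere. It was the highest of this list and the only 1 of the 4 genes past the fold, in both comparisons. For Type-2 minus Type-1 it was at -2.10, where 19.9% of all genes were lower by the fold. For Type-1 minus Unknown it was at 2.10, where 3.13% were higher. Both neurons with Kcnj14 were Dbx1-derived Type-1 neurons of P3 in which Hcn3 led the subunit sum. Of the others, Kcnj12 reached 1 FPKM in sample 6 alone, and Kcnj4 had no fragment.

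**Figure D4:**
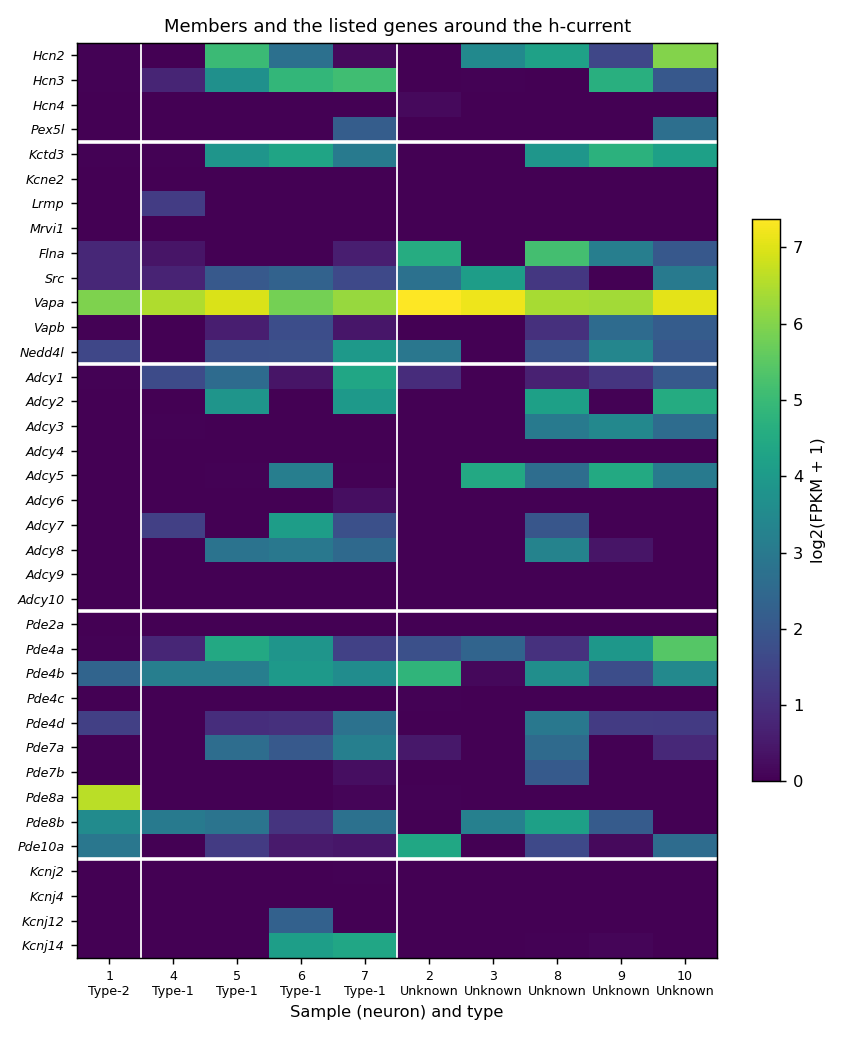
Level as log2(FPKM + 1) (colour) of the 4 members and of the listed HCN partners, adenylyl cyclases, cyclic AMP phosphodiesterases and Kir2 channels (rows, blocks parted by white lines from top to bottom in this order) in each neuron (columns, ordered by type). Vapa is high in every column, Pde8a in sample 1 alone, and Kctd3 is near 0 in samples 1 to 4.

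The transmitter genes were read beside the members. Slc17a6, the vesicular glutamate transporter VGLUT2, was at 101, 158, 156 and 230 FPKM in samples 5, 6, 7 and 8 and at 1.85 FPKM or less elsewhere. Among these glutamatergic-marked neurons Hcn2 led the subunit sum in samples 5 and 8 and Hcn3 in samples 6 and 7. Gad1, which makes GABA, was at 71.8 (sample 1), 37.2 (sample 3), 92.0 (sample 10) and 8.28 FPKM (sample 8), and no higher than 0.194 FPKM in the remaining 6. Gad2, the other GABA-making enzyme, was at 43.5 (sample 1), 22.9 (sample 3), 34.2 (sample 10), 5.14 (sample 7) and 2.53 FPKM (sample 4), and under 1 FPKM elsewhere. Slc6a5, the glycine transporter GLYT2, was at 146 FPKM in the Type-2 neuron and 8.60 FPKM in sample 10, and no higher than 0.178 FPKM in the remaining 8. Against Type-1, the Type-2 neuron was higher by 7.12 for Slc6a5, 6.11 for Gad1 and 4.36 for Gad2, and Slc17a6 differed by -5.04. By the fold of 2, 3 of these 6 genes were thus higher and 1 was lower, beside 11.7% and 19.9% of all genes. Between Type-1 and Unknown neurons, Slc17a6 was higher in Type-1 at 3.34 and Gad1 lower at -2.94. Of all genes, 3.13% and 1.78% passed in these directions. So short a list cannot be set apart from these shares. Slc32a1, the vesicular transporter of GABA and glycine, did not follow these genes, with 1 fragment in sample 1, 0 in sample 3, 0.375 FPKM in sample 10 and its highest level, 5.95 FPKM, in sample 2. Chat, which makes acetylcholine, was at 1.80 FPKM in sample 9 and had no fragment elsewhere. The neuron with the most Hcn2 and Pex5l (sample 10) and the Type-2 neuron, in which all members were at 2 fragments or fewer, thus both held Gad1, Gad2 and Slc6a5, with Slc32a1 under 1 FPKM.

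For each member, the genes with the most similar pattern were taken by Pearson's r of log2(FPKM + 1) over the 10 neurons, among the 10420 genes that reached 1 FPKM in 3 or more neurons. For Hcn2 these were Strn4 (r = 0.955), Sephs1 (r = 0.930) and Spcs3 (r = 0.926), each highest in sample 10. For Hcn3 they were Taf9b (r = 0.988), Cog4 (r = 0.973) and Rnaseh1 (r = 0.955). For Pex5l they were Ncapd3 (r = 0.965), Tti1 (r = 0.958) and Gm49371 (r = 0.956), and for Hcn4 they were Hdac1-ps (r = 0.935), Gm5814 (r = 0.923) and Eya3 (r = 0.909). The last 2 sets rest on 2 neurons and 1 neuron in which the member was present. In each point both genes come from the same library and share its depth. As the highest of 10420 genes over 10 neurons, such r values are high by selection, and none was tested. By Spearman's rho, the 3 nearest genes held 1 of the 3 for Hcn2 and 0 for the other members. Without sample 4, Pearson's r kept 3 of the 3 for Hcn2, 2 for Hcn3, 1 for Hcn4 and 0 for Pex5l.

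Counts of 1 to 12 fragments on a gene that was far higher in another library were also set against the low counts of genes nearly confined to 1 library. For 19 genes that peaked at 10000 fragments or more in 1 library and stayed at or under 1% of the peak elsewhere, the other libraries held a median of 0.00385% of the peak, a 90th percentile of 0.0952% and a highest value of 0.381%. The 2 Hcn2 fragments of the Type-2 neuron were 0.0323% of the highest Hcn2 count, and its 2 Hcn3 fragments were 0.0539% of the highest Hcn3 count. The 12 Hcn2 fragments of sample 7 were 0.194%. The counts of the Type-2 neuron lay between that median and the 90th percentile, and the count of sample 7 lay above the 90th percentile. A place above the median says nothing here. The 1 Hcn2 fragment of sample 2 is already 0.0161% of the highest count, and Hcn3 has a lower peak than Hcn2. Both members peak below the 10000 fragments set for the 19 genes. The 19 genes were chosen for low counts elsewhere, which may include true low expression. This comparison therefore cannot tell presence of Hcn2 or Hcn3 at such levels from background.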

How the data were processed

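Adapters were trimmed by the authors with bbduk, read quality was viewed with FastQC 0.11.8, reads were aligned to GRCm38 with STAR 2.7.7a and fragments were assigned to genes with featureCounts. Its options for strand and for multiple or overlapping matches are not given in the sources used here. The deposited counts are raw fragments per gene. The deposited FPKM values, made by the authors from counts and gene lengths without other normalization, were used as deposited and recomputed to within 1e-06. They were compared as means of log2(FPKM + 1). Type-2 is a single neuron and no animal is named, so no test was run.

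The members and lists were chosen with earlier results of these data known. Named genes were all members and, per list, the gene with the highest mean FPKM and those past a difference of 2 for Type-2 minus Type-1, with the 3 genes most alike per member and the transmitter genes. Flna, Adcy5, Adcy7, Pde4b, Pde8b, Kcnj12 and the overlapping genes were named after their values were seen. Another gene and a sequence are not reported here. Alternatives were a pseudocount of 0.1, TPM, low counts set to 0, thinned libraries, medians, other gene sets and limits, neurons left out and, chosen after seeing the data, counts over samples 5 to 10 only. The steps were checked on simulated counts without spread between neurons, which test the arithmetic and not how reliable the differences are. Library totals of 21392146 to 36629393 fragments set the limits of detection. Positions and sequences are from GENCODE M21. Biopython 1.88, Matplotlib 3.10.9, SciPy 1.17.1, pandas 2.3.3 and NumPy 2.4.6 were run under Python 3.11.15.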

Additional observations from a re-analysis of the deposited data

Results flagged for a closer look

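In 3 of the 8 combinations of a member with the Type-1 or the Unknown group, 1 neuron stood apart by Dixon's gap criterion, which chance meets in about 1 in 20 groups of normally spread values. That rate does not apply where the other neurons are at or near 0, since the gap then fills the range. Pex5l was at 3.50 FPKM in sample 7 with the other Type-1 neurons at 0, and at 5.42 FPKM in sample 10 with the other Unknown neurons on 1 fragment or none. Hcn4 was at 0.135 FPKM in sample 2, on 30 fragments, with the other Unknown neurons at 0.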

How the results depend on the processing

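Of the values for the members, Hcn3 for Type-2 minus Type-1 moved by more than the spread between neurons, to -6.33, with a pseudocount of 0.1, and Hcn4 for Type-1 minus Unknown to -0.25. With that pseudocount Hcn2 was at -3.49 for Type-2 minus Type-1. Leaving out 1 neuron at a time gave -2.61 to -0.93 for Hcn2 and -4.53 to -3.09 for Hcn3 in Type-2 minus Type-1. For Type-1 minus Unknown it gave -2.09 to -0.34 for Hcn2, 1.77 to 3.22 for Hcn3 and -0.54 to 0.54 for Pex5l, whose sign turned. With the group median, Hcn2 was at -2.04 and Hcn3 at 4.26 for Type-1 minus Unknown. With TPM the median over all genes was -0.88 for Type-2 minus Type-1 and 0.32 for Type-1 minus Unknown, against -0.66 and 0.17 with FPKM. With a pseudocount of 0.1 that median was -1.34 and 0.35. With a limit of 0.1 FPKM Hcn4 was counted in 1 neuron, with 5 FPKM Pex5l in 1, and by TPM Hcn3 reached 1 in 6 neurons.

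Counts over all genes depended more on the settings. Genes lower by 2 or more in Type-2 than in Type-1 numbered 3290, and 6084 with a pseudocount of 0.1. Genes higher in Type-1 than in Unknown neurons numbered 518, against 2561 with a pseudocount of 0.1, 1335 with TPM, 1409 with the group median and 438 to 1191 without 1 neuron, highest without sample 4. Genes lower numbered 295, against 1024, 445 and 666 under the same settings and 551 over samples 5 to 10. The causes were not tested. Hcn3, the member past the fold of 2, did not change sign in the alternatives run. The listed genes other than members were not run under them. No paired analysis was possible because the labels pair no neurons. Depth limits statements on Hcn4 and Pex5l to levels above 3 fragments.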
